A study of Homo sapiens with 12 samples.

Results

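The response of neuroblastoma cells to the BET bromodomain inhibitor JQ1 was read from 3 arrays of cells given 1 µM JQ1 for 6 h and 3 arrays of cells given vehicle for 6 h. The members are all named genes of these arrays, 14884 of 14884 tested in the series, each represented by the transcript cluster (the probes assigned to 1 transcribed locus) with the highest mean signal. They comprise 11915 protein-coding genes, 1398 long noncoding RNA genes, 1072 microRNA genes and 499 others. The cells were SK-N-BE(2), a neuroblastoma line with amplified MYCN, grown in DMEM with fetal calf serum. The other 6 of the 12 arrays came from the same line after 6 h with 10 nM panobinostat, an inhibitor of histone deacetylases, or with 1 µM JQ1 and 10 nM panobinostat together. Total RNA was hybridised to Affymetrix human gene arrays. The solvent of the vehicle is not named in the labels, and all groups are of 1 cell line. MYCN and CDKN1A were not analysed here.

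BET proteins, BRD2 and BRD3 among them, carry paired bromodomains that bind acetylated lysines of histones, and they bring the elongation kinase P-TEFb to promoters and enhancers. JQ1 occupies the acetyl-lysine pocket of these bromodomains and displaces the proteins from chromatin. In neuroblastoma, MYCN and a circuit of adrenergic transcription factors lie under large BET-bound enhancers, for which BET inhibitors have been studied in this tumour.

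All values are the deposited log2 signals, and a change is the log2 difference JQ1 minus vehicle ± SE from limma with 3 arrays per group. A gene was called where limma's adjusted p (Benjamini-Hochberg over the 14884 genes) was under 0.05. Correlations over these genes ran from 0.991 to 0.995 between arrays of a group and from 0.983 to 0.988 between JQ1 and vehicle arrays. The median gene had a mean signal of 7.24, and the 6 array medians lay between 7.20 and 7.24. Sympathetic neuroblast markers were present: 17 of 17 measured had a vehicle mean at or above the median gene, and their mean over the list was 10.35 to 10.36 in vehicle arrays and 10.22 to 10.24 in JQ1 arrays. Of 6 blood and endothelial markers, 1 reached the median gene, and that list's mean was 5.98 to 6.15 in vehicle and 6.08 to 6.16 in JQ1 arrays. Of 8 Schwann and stromal markers, 3 reached it, with list means of 7.30 to 7.38 and 7.29 to 7.37. With 3 arrays a group, the smallest two-sided p of an exact permutation test on 1 gene is 0.1, so the tests below are those of the fit across all genes.

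JQ1 changed many genes by small amounts and few by large ones. Of the 14884 genes, 2627 were called (17.6%), 1218 of them higher with JQ1 (8.18%) and 1409 lower (9.47%). The median change was 0.41 among those called higher and -0.45 among those called lower. A change of at least 2-fold was reached by 129 called genes (0.867%), made up of 55 of the genes called higher (0.37%) and 74 of those called lower (0.497%). The tail was longer on the lower side, where 14 genes passed a log2 change of 1.5 in size against 2 on the higher side. In 33.5% of all genes the arrays of the 2 groups did not overlap. The balance of directions moved with the scaling, since the calls were 1467 higher and 1326 lower after median centring of the arrays, and leaving out the first vehicle array gave 1293 higher and 1144 lower. Without the first JQ1 array, 810 were higher and 1110 lower. The plot of change against signal shows that calls were rare among dim genes. In the quartile of genes with the lowest signal 3.8% were called, in that with the highest 30.4%. Among protein-coding genes 20.3% were called, against 9.0% of long noncoding RNA genes and 4.7% of microRNA genes, whose median vehicle signals were 7.66, 5.94 and 5.21.

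**Figure D1:**
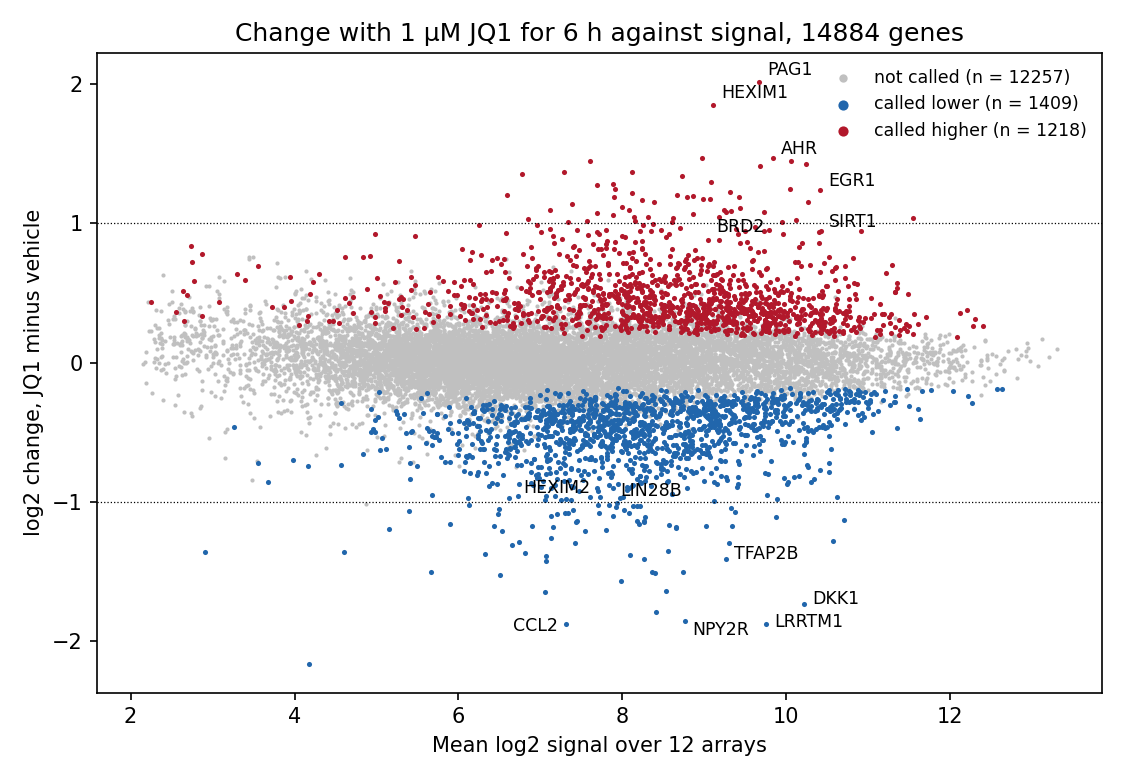
Log2 change (JQ1 minus vehicle, 3 arrays each) against mean log2 signal over the 12 arrays for 14884 genes; red points were called higher (1218), blue points called lower (1409), grey points were not called, and dotted lines mark 2-fold. PAG1 and HEXIM1 stand alone at the top, and LRRTM1, CCL2, NPY2R and DKK1 lie near the bottom at middle to high signal.

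The 15 genes with the largest rises had varied functions. PAG1, a membrane adaptor that recruits the Src inhibitor CSK, had the largest rise, 4.05-fold. Its log2 signal was 8.59, 8.05 and 8.30 in the vehicle arrays and 10.33, 10.38 and 10.29 in the JQ1 arrays, a change of 2.02 ± 0.13 (adjusted p = 4.68e-06). The vehicle arrays of PAG1 spread over about 0.5 and the JQ1 arrays over about 0.1, far apart from each other. HEXIM1, which holds P-TEFb inactive in the 7SK RNA particle, stood at 8.08, 8.02 and 8.04 in the vehicle arrays and 9.82, 9.90 and 9.98 in the JQ1 arrays, a change of 1.85 ± 0.06 (3.61-fold, adjusted p = 6.4e-08). HEXIM1 had the lowest p of the genes named here, as its arrays of each group lay close together. Another, dimmer cluster named for HEXIM1 (mean 6.85) did not follow it, at -0.40 (adjusted p = 0.185 over all clusters).

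Other large rises fell to genes of varied function. EFR3B, which anchors phosphatidylinositol 4-kinase at the plasma membrane, was at 8.49, 8.07 and 8.17 in the vehicle arrays and 9.65, 9.77 and 9.72 in the JQ1 arrays (1.47 ± 0.10). AHR, the ligand-activated aryl hydrocarbon receptor, was at 8.25, 8.42 and 8.41 in the vehicle arrays and 9.81, 9.79 and 9.88 in the JQ1 arrays (1.47 ± 0.09). NPTX2, a secreted pentraxin that gathers AMPA receptors at synapses, was at 9.16, 9.30 and 9.16 in the vehicle arrays and 10.76, 10.67 and 10.54 in the JQ1 arrays (1.45 ± 0.08). In each of these genes the lowest JQ1 array was more than 1 log2 unit above the highest vehicle array. The receptor NPTXR, which binds NPTX2 at the synapse, also rose, by 1.10 ± 0.11 from a vehicle mean of 6.86. SESN3, a sestrin that restrains mTORC1, rose by 1.43 ± 0.08, and MKNK2, a kinase that phosphorylates the translation factor eIF4E, by 1.41 ± 0.08. AMIGO3, a leucine-rich repeat adhesion protein, rose by 1.45 ± 0.13 from a vehicle mean of 6.75. The remaining rises of this set were EFNB2, an ephrin (1.37 ± 0.13), TESK2, a kinase of cofilin (1.37 ± 0.14), ABTB2 (1.34 ± 0.09), TUFT1 (1.30 ± 0.09), SERTAD1, a cofactor of E2F and CDK4 (1.28 ± 0.15), DNM3, a dynamin (1.28 ± 0.15), and SLIT2, an axon guidance ligand (1.25 ± 0.11). All 15 lay between 2.38-fold and 4.05-fold, and in all 15 the JQ1 arrays were above every vehicle array, a separation that the choice of these genes required.

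The 15 largest falls were led by LRRTM1, CCL2 and NPY2R. LRRTM1, a postsynaptic adhesion protein that binds neurexins, was at 11.55, 11.61 and 11.59 in the vehicle arrays and 9.89, 9.62 and 9.60 in the JQ1 arrays and fell by 1.88 ± 0.11 (adjusted p = 1.49e-06). CCL2, the chemokine that attracts monocytes, was at 8.64, 8.56 and 9.00 in the vehicle arrays and 7.10, 6.55 and 6.90 in the JQ1 arrays, a change of -1.88 ± 0.18 (adjusted p = 6e-05). NPY2R, the presynaptic receptor of neuropeptide Y, was at 10.37, 10.22 and 10.07 in the vehicle arrays and 8.47, 8.32 and 8.29 in the JQ1 arrays (-1.86 ± 0.09). The 3 genes lost a similar amount, but their error differed, with CCL2 the most spread between arrays. DKK1, a secreted antagonist of WNT signalling, was at 11.94, 11.69 and 11.85 in the vehicle arrays and 10.29, 9.89 and 10.08 in the JQ1 arrays (-1.74 ± 0.14). POPDC2, a cyclic AMP binding membrane protein, fell to 8.07 from 9.87 (-1.79 ± 0.09), and NHSL2 to 8.23 from 9.88 (-1.65 ± 0.09). RD3, known for its block of guanylate cyclase in the retina, fell by 1.57 ± 0.12, although another, dimmer RD3 cluster was at -0.30 (adjusted p = 0.156 over all clusters). SYT4, a synaptotagmin of dense-core vesicles, was at 9.32, 9.96 and 9.39 in the vehicle arrays and 8.17, 8.20 and 7.77 in the JQ1 arrays (-1.51 ± 0.17). LMO1, a LIM-only transcription cofactor tied to neuroblastoma risk, was at 8.04, 8.17 and 8.08 in the vehicle arrays and 6.91, 6.75 and 6.35 in the JQ1 arrays (-1.43 ± 0.13). TFAP2B, a transcription factor of sympathetic neuroblasts, was at 11.02, 11.25 and 11.02 in the vehicle arrays and 9.83, 9.60 and 9.63 in the JQ1 arrays (-1.41 ± 0.09). Its 3 JQ1 arrays lay more than 1 log2 unit below the vehicle arrays. PALMD (-1.65 ± 0.27), PRR16 (-1.51 ± 0.18), LINGO4 (-1.50 ± 0.16), PI15 (-1.41 ± 0.12) and HGF, the ligand of MET (-1.39 ± 0.14), completed the set. PALMD had the largest error of these, with 1 vehicle array at 8.78 against 8.08 and 8.10. The plot of single arrays for the 30 genes shows these spreads.

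**Figure D2:**
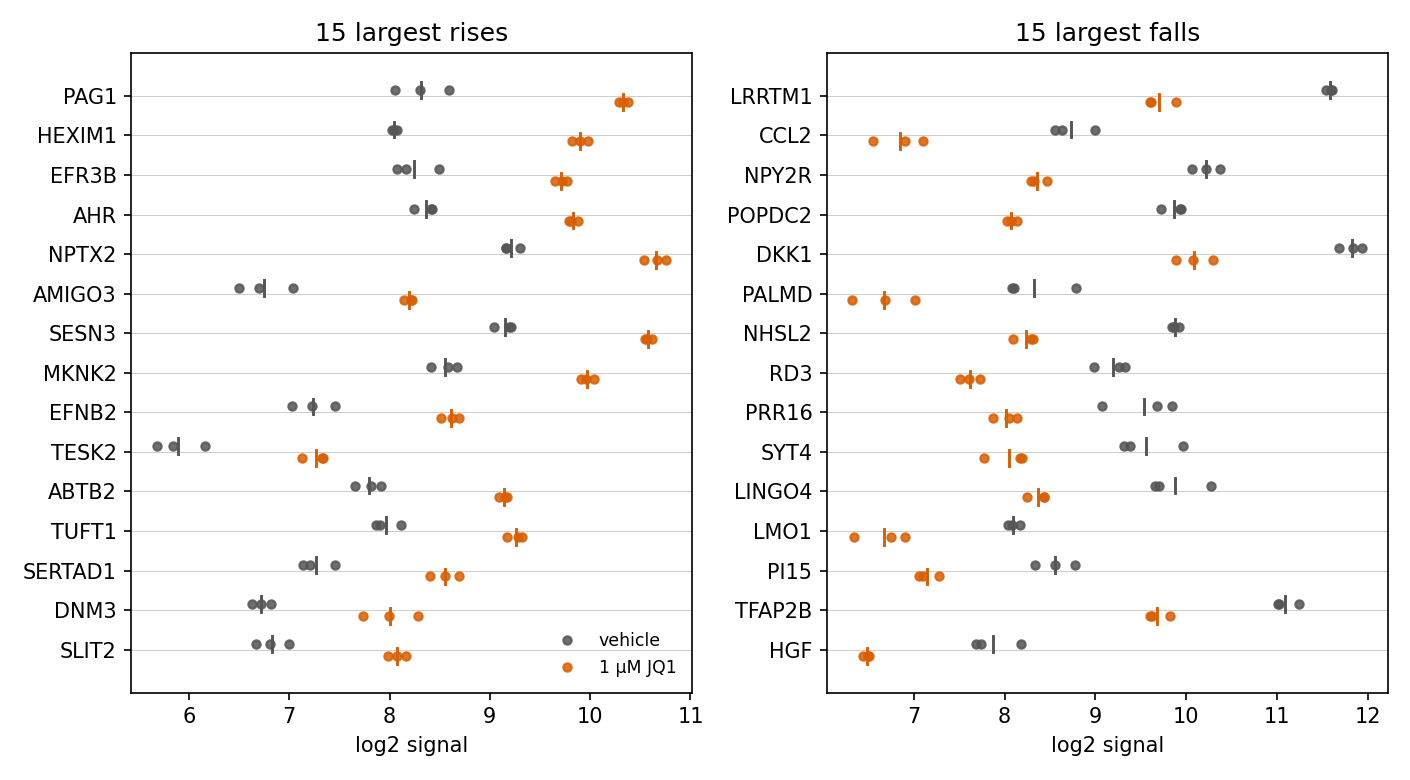
Log2 signal of each vehicle array (grey) and each JQ1 array (orange) for the 15 largest rises and the 15 largest falls, with vertical ticks at the group means (n = 3). In every row the groups do not overlap, which the choice of the genes required; the vehicle arrays of PRR16 and PALMD spread the most.

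The base composition of promoters was set beside the calls. The promoters of HEXIM1 and LRRTM1 are shown because, among protein-coding genes, HEXIM1 had the lowest p of the rises and LRRTM1 the largest fall. They are the 250 bases before the RefSeq transcription start on GRCh38.p14, printed on the gene's strand with CpG dinucleotides in capitals. HEXIM1 lies at chr17:45148225-45148474 on the plus strand, and LRRTM1 at chr2:80304753-80305002 on the minus strand.
HEXIM1: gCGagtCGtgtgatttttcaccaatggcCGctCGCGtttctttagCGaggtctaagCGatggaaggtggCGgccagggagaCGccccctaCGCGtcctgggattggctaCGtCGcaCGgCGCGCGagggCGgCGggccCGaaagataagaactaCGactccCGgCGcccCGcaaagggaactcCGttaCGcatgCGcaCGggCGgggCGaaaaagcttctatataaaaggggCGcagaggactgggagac
LRRTM1: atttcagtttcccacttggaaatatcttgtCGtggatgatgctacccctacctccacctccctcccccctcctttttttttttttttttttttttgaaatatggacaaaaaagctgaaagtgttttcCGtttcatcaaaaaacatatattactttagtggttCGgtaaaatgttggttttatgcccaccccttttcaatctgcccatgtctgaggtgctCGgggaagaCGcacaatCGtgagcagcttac
The HEXIM1 stretch holds 31 CpG and 62.4% GC, the LRRTM1 stretch 6 CpG and 40.8% GC.

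RefSeq promoter sequences of 300 bases (250 before and 50 after the start) were matched for 9707 of the 11915 protein-coding genes. Their median GC content was 63.7%. It was 68.0% in 941 genes called higher, 63.0% in 1064 genes called lower and 63.3% in 7702 genes not called. The gap was wider for changes of at least 2-fold, at 69.5% for 42 rises and 58.3% for 50 falls. In GC content the genes called lower were close to those not called. Median CpG counts had another order, with 29 for genes called higher, 24 for genes called lower and 22 for genes not called. They were 31 for the 2-fold rises and 15 for the 2-fold falls. Genes called in either direction were also brighter and longer than those not called. Their median vehicle signals were 8.45 (higher) and 8.86 (lower) against 7.42, and their median spans were 37.6 and 42.7 kb against 25.1 kb. These properties were described without a test, and the part of signal and span in the difference of base composition was not tested.

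**Figure D3:**
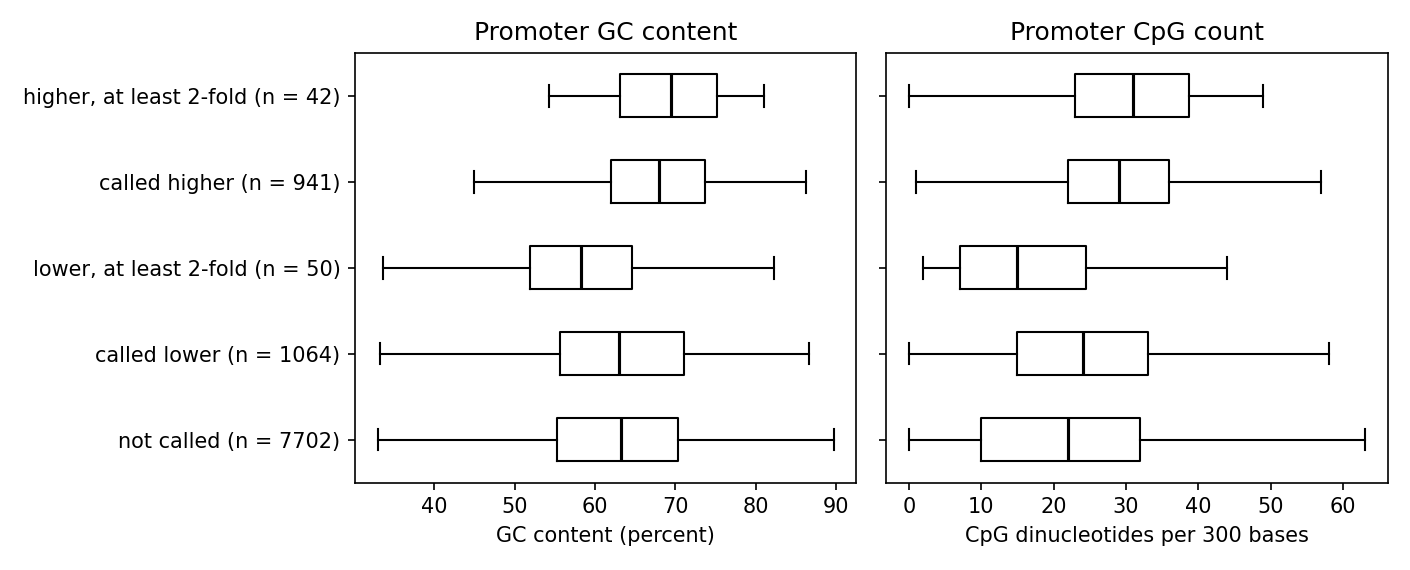
GC content in percent (left) and number of CpG dinucleotides (right) in the 300-base promoter, by call, for protein-coding genes with a RefSeq promoter; boxes show the quartiles, lines the medians and whiskers 1.5 interquartile ranges, without outliers. The medians of GC content rise from 58.3% in the 2-fold falls to 69.5% in the 2-fold rises.

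Among the direct targets of JQ1 and the P-TEFb machinery, the genes that changed were mostly higher. BRD2 was at 8.77, 8.61 and 8.61 in the vehicle arrays and 9.62, 9.46 and 9.54 in the JQ1 arrays, a rise of 0.88 ± 0.10 (adjusted p = 0.0001), and BRD3 rose by 0.33 ± 0.06. CREBBP, an acetyltransferase with its own bromodomain, fell by 0.44 ± 0.07. Of 8 measured bromodomain readers, 2 rose and 1 fell, with a median of 0.07 against 0.01 over all genes. Counts of list members here and below stand beside 8.18% called higher and 9.47% called lower over all genes. Bright genes were called more often, at 30.4% in the quartile with the highest signal. Of 19 measured genes of P-TEFb, the 7SK particle and elongation, 5 rose and 2 fell (median 0.11). Beside HEXIM1 these were the P-TEFb kinase CDK9 at 9.96, 9.93 and 9.99 in the vehicle arrays and 10.33, 10.33 and 10.29 in the JQ1 arrays (0.36 ± 0.06), its cyclin CCNT1 (0.39 ± 0.07), the 7SK capping enzyme MEPCE (0.46 ± 0.09) and the elongation factor ELL (0.45 ± 0.09). HEXIM2, the paralog of HEXIM1, went the other way, at 7.47, 7.42 and 7.35 in the vehicle arrays and 6.64, 6.66 and 6.58 in the JQ1 arrays (-0.79 ± 0.10). Its other, dimmer cluster was at 0.09 (adjusted p = 0.649 over all clusters). CDK13, another cyclin-dependent kinase of elongation, was at 0.15 ± 0.07 and was not called.

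Immediate early genes, the first transcripts that growth factors and stress induce, had the largest share of rises among the lists with at least 8 measured members. Of 25 measured members of this list, which includes AP-1 subunits, 16 rose and 0 fell by limma, and the median was 0.42. At an unadjusted p under 0.05 the counts were 17 and 0. EGR1, a zinc finger factor of that early wave, was at 9.62, 9.23 and 9.36 in the vehicle arrays and 10.64, 10.63 and 10.66 in the JQ1 arrays (1.24 ± 0.12, adjusted p = 5.43e-05). KLF2, a Krüppel-like factor, was at 8.64, 8.17 and 8.58 in the vehicle arrays and 9.66, 9.30 and 9.72 in the JQ1 arrays (1.10 ± 0.20). IER5 was at 8.34, 8.01 and 7.96 in the vehicle arrays and 9.00, 9.25 and 9.26 in the JQ1 arrays (1.07 ± 0.12). For these genes the JQ1 arrays were above every vehicle array, with KLF2 the most spread. The AP-1 subunit JUND rose by 0.86 ± 0.10 and the small GTPase RHOB by 0.70 ± 0.08. FOS, the founding AP-1 gene, was at 0.44 ± 0.15 and was not called (adjusted p = 0.0676), nor was FOSL2 at 0.14 ± 0.14. FOS passed under several other settings, among them without the second JQ1 array, at 0.54 (adjusted p = 0.0474 by limma). A dimmer EGR1 cluster was at 0.79 (adjusted p = 0.118 over all clusters).

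Many immediate early genes are driven by SRF, which binds the CArG box. A search of the 300-base promoters on both strands, with no overlap between hits of different motifs considered, found a CArG box in 2 of the 19 immediate early genes with a promoter. That was 10.53%, against 1.26% of all protein-coding genes tested and 1.29% of 27305 RefSeq promoters. They were EGR1 and SRF itself, whose gene was at 9.56, 9.50 and 9.47 in the vehicle arrays and 10.12, 10.00 and 9.81 in the JQ1 arrays (0.46 ± 0.09, adjusted p = 0.0028) and is added here after its value was seen. Over all genes called higher the share was 1.17% (11 of 941), and over those called lower 0.85% (9 of 1064), both below that of all protein-coding genes. Among the 42 rises of at least 2-fold, 3 held a CArG box (EGR1, MKNK2 and MYO1E), and 0 of the 50 falls of that size did. The 250 bases before the start of EGR1 (chr5:138465229-138465478, plus strand), SRF (chr6:43171019-43171268, plus strand) and MKNK2 (chr19:2051245-2051494, minus strand), all GRCh38.p14, are shown because they hold the match, which is in capitals.
EGR1: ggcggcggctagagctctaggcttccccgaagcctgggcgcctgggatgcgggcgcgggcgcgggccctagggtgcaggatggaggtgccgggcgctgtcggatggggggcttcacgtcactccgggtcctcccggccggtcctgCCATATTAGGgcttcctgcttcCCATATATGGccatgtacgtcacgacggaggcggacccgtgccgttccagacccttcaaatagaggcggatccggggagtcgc
SRF: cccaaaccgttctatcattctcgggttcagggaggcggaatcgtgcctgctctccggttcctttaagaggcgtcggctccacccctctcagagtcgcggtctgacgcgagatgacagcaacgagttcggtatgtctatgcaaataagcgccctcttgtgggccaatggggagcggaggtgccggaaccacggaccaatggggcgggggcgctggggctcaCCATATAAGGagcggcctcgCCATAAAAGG
MKNK2: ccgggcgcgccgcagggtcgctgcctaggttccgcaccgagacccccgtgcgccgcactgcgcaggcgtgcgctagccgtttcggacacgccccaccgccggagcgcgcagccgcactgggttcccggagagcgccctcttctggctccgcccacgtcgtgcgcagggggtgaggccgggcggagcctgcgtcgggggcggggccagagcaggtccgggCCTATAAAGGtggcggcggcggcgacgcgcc
EGR1 and SRF hold 2 boxes each, and MKNK2 holds 1. The MKNK2 box contains TATAAA, begins 31 bases before the start and is also counted for that motif below. A match of letters does not show that SRF was bound at these sites. The E-box CACGTG, the site read by MYC family factors, was found in 9.78% of promoters of genes called higher and 11.56% of those called lower, against 9.1% of all protein-coding genes and 7.43% of all RefSeq promoters. It was in 7.14% of the 2-fold rises and 6.0% of the 2-fold falls, which are 3 genes each. TATAAA was in 6.27% of genes called higher and 5.26% of those called lower, but stood in 14.29% of the 2-fold rises and 14.0% of the 2-fold falls, which are 6 and 7 genes, against 8.19% of all protein-coding genes. The AP-1 site TGACTCA was in 2.23% of genes called higher, 3.1% of those called lower and 3.52% of all protein-coding genes, and the cyclic AMP response element TGACGTCA in 3.29%, 2.35% and 2.72%. The 2-fold rises and falls held 0 and 3 genes with the AP-1 site, and 1 each with the cyclic AMP element.

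Genes of the MAP kinase cascade and its feedback changed in both directions, with the larger values on the higher side. Beside kinases and phosphatases, this list holds SPRY2, SPRY4, RASA2 and transcription factors of the ETV family. Of the latter, ETV1 and ETV4 were among the falls and ETV5 among the rises. Of 24 measured members, 8 rose and 4 fell (median 0.17). Beside MKNK2, the phosphatase DUSP14 was at 8.65, 8.46 and 8.52 in the vehicle arrays and 9.75, 9.69 and 9.87 in the JQ1 arrays (1.23 ± 0.09), and DUSP5, an ERK phosphatase, rose by 0.81 ± 0.14, while its dimmer cluster was at 0.05. The kinases MAP2K1 and MAP3K8 rose by 0.61 ± 0.07 and 0.77 ± 0.14. MAP3K5, the stress kinase ASK1, fell by 0.93 ± 0.13 from a vehicle mean of 8.32.

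Genes of the p53 response, of growth arrest and of autophagy had more rises than falls. Of 19 measured p53 targets and sestrins, 10 rose and 1 fell (median 0.43). SESN3 led with 9.21, 9.04 and 9.20 in the vehicle arrays and 10.56, 10.62 and 10.55 in the JQ1 arrays. SESN2 was at 7.41, 7.16 and 7.32 in the vehicle arrays and 8.30, 8.18 and 8.14 in the JQ1 arrays (0.91 ± 0.11), and SESN1 at 7.71, 7.11 and 7.14 in the vehicle arrays and 8.25, 8.20 and 7.97 in the JQ1 arrays (0.82 ± 0.18). The 3 sestrins, which restrain mTORC1 under stress, all rose, and SESN1 was the most variable of them. TP53INP1, a p53-induced regulator of autophagy and cell death, rose by 1.01 ± 0.12, RRM2B, a ribonucleotide reductase subunit, by 0.71 ± 0.16, and PMAIP1, which encodes the BH3 protein NOXA, by 0.68 ± 0.09. BBC3, which encodes PUMA, was at 0.19 ± 0.13 and was not called. Of 22 genes of the FOXO and growth-arrest list, 9 rose and 0 fell by limma (median 0.14), or 10 and 2 at an unadjusted p under 0.05. MXD1, a MAX partner that opposes MYC, was at 8.48, 8.03 and 8.19 in the vehicle arrays and 9.35, 9.24 and 9.35 in the JQ1 arrays (1.08 ± 0.11), and SAT1, which breaks down polyamines, rose by 0.86 ± 0.17. The arrestin ARRDC4 rose by 0.68 ± 0.11 and the repressor BCL6 by 0.60 ± 0.12, while FOXO4 was at -0.23 ± 0.10 and was not called. Of 31 autophagy and lysosome genes, 8 rose and 0 fell by limma (median 0.06; 10 and 0 at an unadjusted p under 0.05), among them the sialidase NEU1 (0.88 ± 0.08), ATG2A (0.59 ± 0.07), MAP1LC3B (0.47 ± 0.10) and the receptor SQSTM1 (0.35 ± 0.08).

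**Figure D4:**
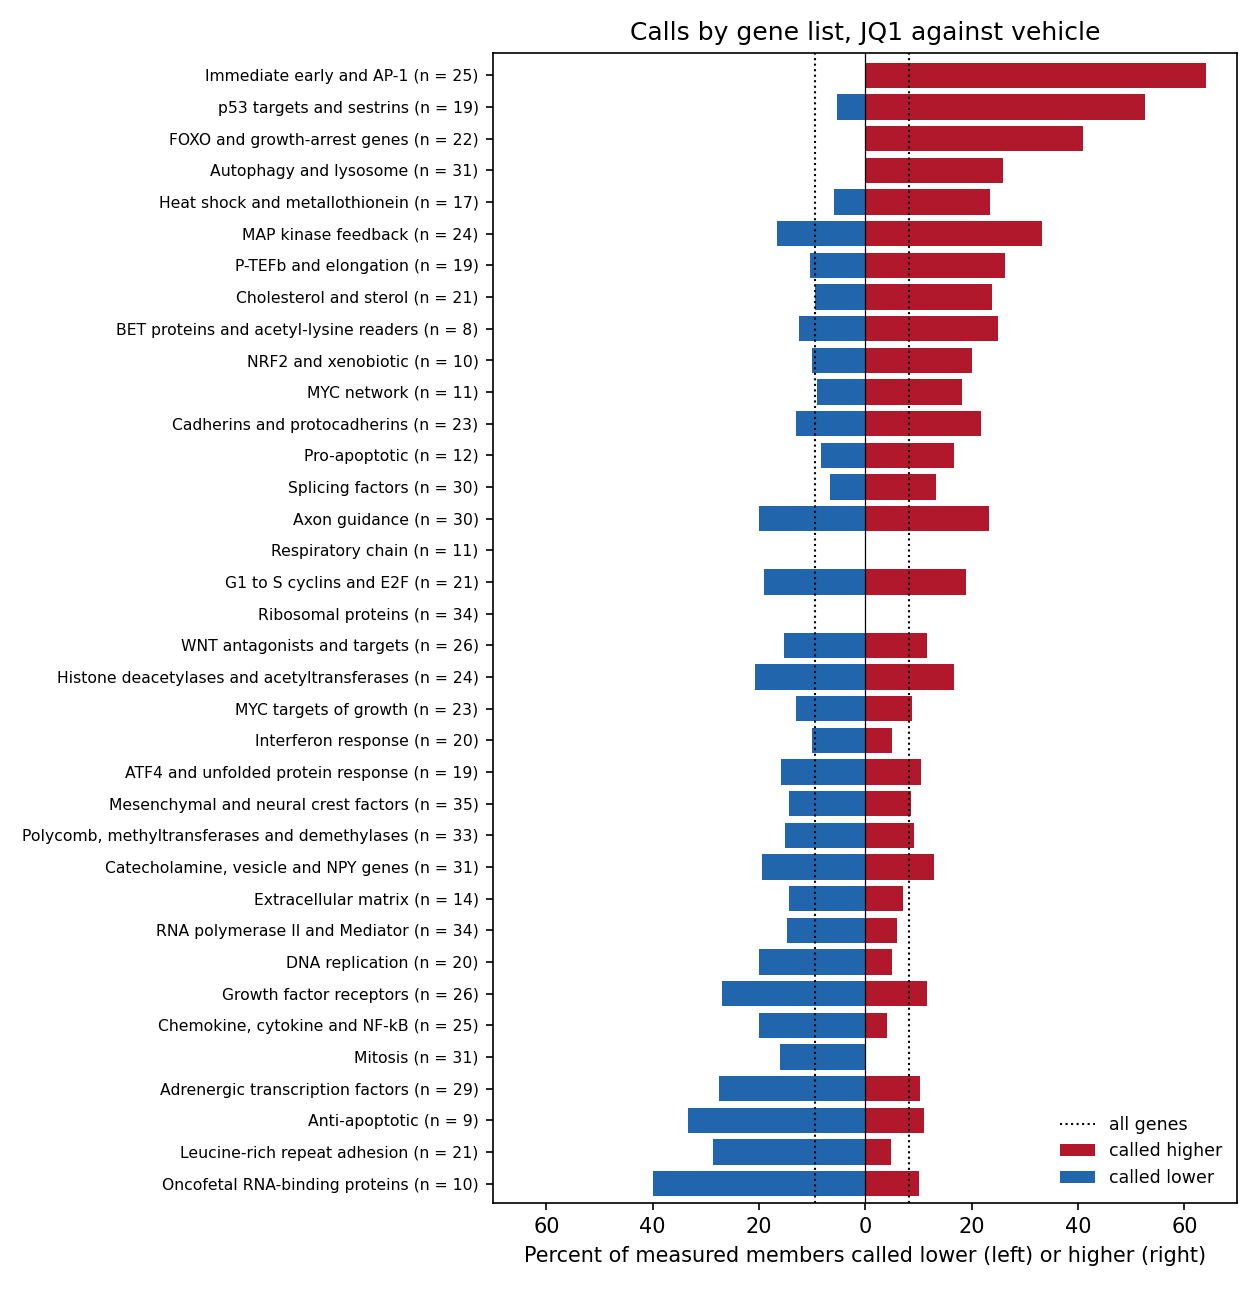
Percent of the measured members of each gene list called higher (red, right) or lower (blue, left) with JQ1 against vehicle, for lists with at least 8 measured members; dotted lines mark the shares over all genes, 8.18% higher and 9.47% lower. Immediate early genes reach the largest share of rises, and the oncofetal RNA-binding list (4 of 10) the largest share of falls.

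The adrenergic transcription factors, which set sympathetic neuroblast identity, leaned lower without moving as a block. Of 29 measured, 3 rose and 8 fell (median -0.18). TFAP2B and LMO1 led the falls, followed by LMO3, a LIM-only protein like LMO1, at 7.19, 7.46 and 7.20 in the vehicle arrays and 6.44, 6.56 and 6.24 in the JQ1 arrays (-0.87 ± 0.11). The homeobox gene SIX3 fell by 0.44 ± 0.09. SOX11 went the other way, at 9.62, 9.32 and 9.26 in the vehicle arrays and 10.07, 10.08 and 9.94 in the JQ1 arrays (0.63 ± 0.10), and its JQ1 arrays were above every vehicle array. DACH1 was at -0.42 ± 0.19 and was not called. Factors of the mesenchymal neuroblastoma state were called near the background, 3 higher and 5 lower of 35 (median -0.02). Within them PRRX2 (-0.79 ± 0.13), ZEB2 (-0.70 ± 0.11) and SNAI1 (-0.67 ± 0.09) fell, and the NOTCH ligand JAG1 rose by 0.93 ± 0.08.

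MYC itself stayed below the test. Its log2 signal was 6.03, 6.32 and 6.17 in the vehicle arrays and 6.49, 6.44 and 6.44 in the JQ1 arrays, a difference of 0.28 ± 0.13 (adjusted p = 0.161). Of 11 genes of the MYC and MAX network, 2 rose and 1 fell, with MXD1 the largest. Genes of growth that MYC proteins are known to drive were called at the background rate, with 2 higher and 3 lower of 23 (median 0.02), and LDHA, lactate dehydrogenase, fell by 0.41 ± 0.08. In the oncofetal RNA-binding list of 10 genes, 1 rose and 4 fell, or 0 and 4 after quantile normalization. Over all genes 17.6% were called, and over protein-coding genes 20.3%. The list also holds the chromatin proteins HMGA1 and HMGA2, which were not called, and the exonuclease DIS3L2, which was among the falls. IGF2BP2 was the rise, and IGF2BP1 and IGF2BP3 were not called. LIN28B, which blocks let-7 maturation, was at 9.09, 8.93 and 9.12 in the vehicle arrays and 8.17, 8.10 and 8.15 in the JQ1 arrays (-0.90 ± 0.10), and MSI2, a Musashi protein of progenitor cells, fell by 0.58 ± 0.07.

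Cell cycle genes moved by small amounts. Of 31 mitosis genes, 0 rose and 5 fell by limma (median -0.08; 1 and 9 at an unadjusted p under 0.05), with BUB1B, a checkpoint kinase, at -0.29 ± 0.06. CDK1, the mitotic kinase, was at 0.23 ± 0.09 and was not called, although it was with a prior that followed signal and after quantile normalization (0.24, adjusted p = 0.0463 by limma). Of 20 DNA replication genes, 1 rose and 4 fell (median 0.00), including GINS1 (-0.43 ± 0.07) and MCM5 (-0.31 ± 0.07). Of 21 cyclins and E2F regulators, 4 rose and 4 fell. E2F2 fell by 0.51 ± 0.10 and CDK6 by 0.34 ± 0.07, whereas E2F7, a repressor of the family, rose by 0.36 ± 0.07. CCND1, the cyclin D1 gene that is prominent in neuroblastoma, was at 11.61, 11.64 and 11.71 in the vehicle arrays and 11.44, 11.44 and 11.45 in the JQ1 arrays (-0.21 ± 0.08). Its groups did not overlap, but it was not called (adjusted p = 0.0861); it passed the threshold once dim genes were left out or the prior followed signal. Ribosomal protein genes gave a flat reference, with 0 of 34 called and values from -0.17 to 0.15, and 0 of 11 respiratory chain genes were called by limma. At an unadjusted p under 0.05 the count was 0 in both lists.

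Regulators of apoptosis changed on both sides. BCL2 was at 10.25, 10.09 and 10.13 in the vehicle arrays and 9.53, 9.45 and 9.45 in the JQ1 arrays (-0.68 ± 0.09, adjusted p = 0.000434). BCL2L1, which encodes BCL-XL, fell by 0.61 ± 0.11, and CFLAR, the inhibitor of caspase 8 known as FLIP, by 0.69 ± 0.10. MCL1, also protective, rose by 0.30 ± 0.07, so that 3 of 9 measured protective genes fell and 1 rose. Of 12 pro-apoptotic genes, 2 rose and 1 fell (median 0.06). The rises were PMAIP1 and BCL2L11, which encodes BIM and was at 7.65, 7.48 and 7.31 in the vehicle arrays and 8.20, 8.11 and 8.03 in the JQ1 arrays (0.63 ± 0.13).

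Genes of neuronal adhesion and axon guidance changed in both directions. The leucine-rich repeat, axon guidance and cadherin lists had 33.3%, 43.3% and 34.8% of members called. Over all genes the share was 17.6%, and over protein-coding genes 20.3%. Of 21 measured leucine-rich repeat adhesion genes, 1 rose and 6 fell (median -0.19). LRRN3 was at 10.90, 10.86 and 10.75 in the vehicle arrays and 9.91, 9.80 and 9.86 in the JQ1 arrays (-0.98 ± 0.08). Its relatives LRRN2 and LRRN4 fell by 0.53 ± 0.11 and 0.52 ± 0.11, and LRRC4B by 0.46 ± 0.09. AMIGO3 was the rise. Of 30 axon guidance genes, 7 rose and 6 fell (median 0.04), and members of 1 family went opposite ways. SLIT2 was at a mean of 6.83 in the vehicle arrays and 8.07 in the JQ1 arrays, and SLIT3 at 10.22, 10.27 and 10.01 in the vehicle arrays and 9.06, 9.32 and 8.90 in the JQ1 arrays (-1.07 ± 0.13). SLIT2 and SLIT3, secreted ligands of ROBO receptors, moved by similar amounts in opposite directions. SLIT1 of the same family, added after its value was seen, was among the falls. UNC5D, a netrin receptor, rose by 1.04 ± 0.13, and the ephrin receptor EPHB3 by 0.58 ± 0.12. Of 23 cadherins and other adhesion genes, 5 rose and 3 fell, with the protocadherin PCDH17 at 0.62 ± 0.12 and CNTN4, a contactin, at -0.56 ± 0.09.

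Of 31 genes for catecholamine synthesis, secretory vesicles and neuropeptide Y signalling, 4 rose and 6 fell (median 0.02). Beside NPY2R and SYT4, the granin SCG2 was at 11.27, 11.02 and 10.99 in the vehicle arrays and 10.21, 10.26 and 10.23 in the JQ1 arrays (-0.86 ± 0.08). VGF, another neuropeptide precursor, was at 8.80, 8.92 and 8.58 in the vehicle arrays and 9.55, 9.90 and 9.61 in the JQ1 arrays (0.92 ± 0.11), and SYN1, a synapsin, rose by 0.72 ± 0.13. VGF and SCG2 went opposite ways.

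Receptors, WNT genes and cytokines changed in both directions. Their 3 lists had 38.5%, 26.9% and 24.0% of members called in that order. Over all genes the share was 17.6%, and over protein-coding genes 20.3%. Of 26 growth factor receptors, 3 rose and 7 fell (median 0.07). GFRA2, the coreceptor of neurturin, was at a mean of 8.94 in the vehicle arrays and 7.96 in the JQ1 arrays (-0.97 ± 0.08), and GFRA1, that of GDNF, fell by 0.68 ± 0.12. Their relative GFRA3 (-0.14) and the shared signalling receptor RET (0.09) were not called. The collagen receptor DDR2 and EGFR fell by 0.66 ± 0.07 and 0.43 ± 0.09. FGFR1 went the other way, at 7.23, 7.40 and 7.28 in the vehicle arrays and 8.13, 8.10 and 8.14 in the JQ1 arrays (0.82 ± 0.07). Among 26 WNT genes, 3 rose and 4 fell (median 0.00). Falls included the secreted antagonists DKK1, FRZB (-1.11 ± 0.12) and DKK2 (-1.29 ± 0.28), and the receptor LGR5 (-0.62 ± 0.07). Its relative LGR4 rose by 0.69 ± 0.13, and NKD1, an inhibitor inside the cell, by 0.68 ± 0.11. Among 25 chemokine, cytokine and NF-kB genes, 1 rose and 5 fell (median 0.00). IL7, an interleukin for lymphocytes, was at 7.75, 7.44 and 7.20 in the vehicle arrays and 6.34, 6.33 and 6.18 in the JQ1 arrays (-1.18 ± 0.15), and NFKB1 fell by 0.47 ± 0.09, whereas REL, another NF-kB subunit, rose by 0.37 ± 0.07. The interferon response list was near the background, with 1 rise and 2 falls of 20; IRF7 rose by 0.91 ± 0.09 and IFIT2 fell by 0.63 ± 0.09.

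**Figure D5:**
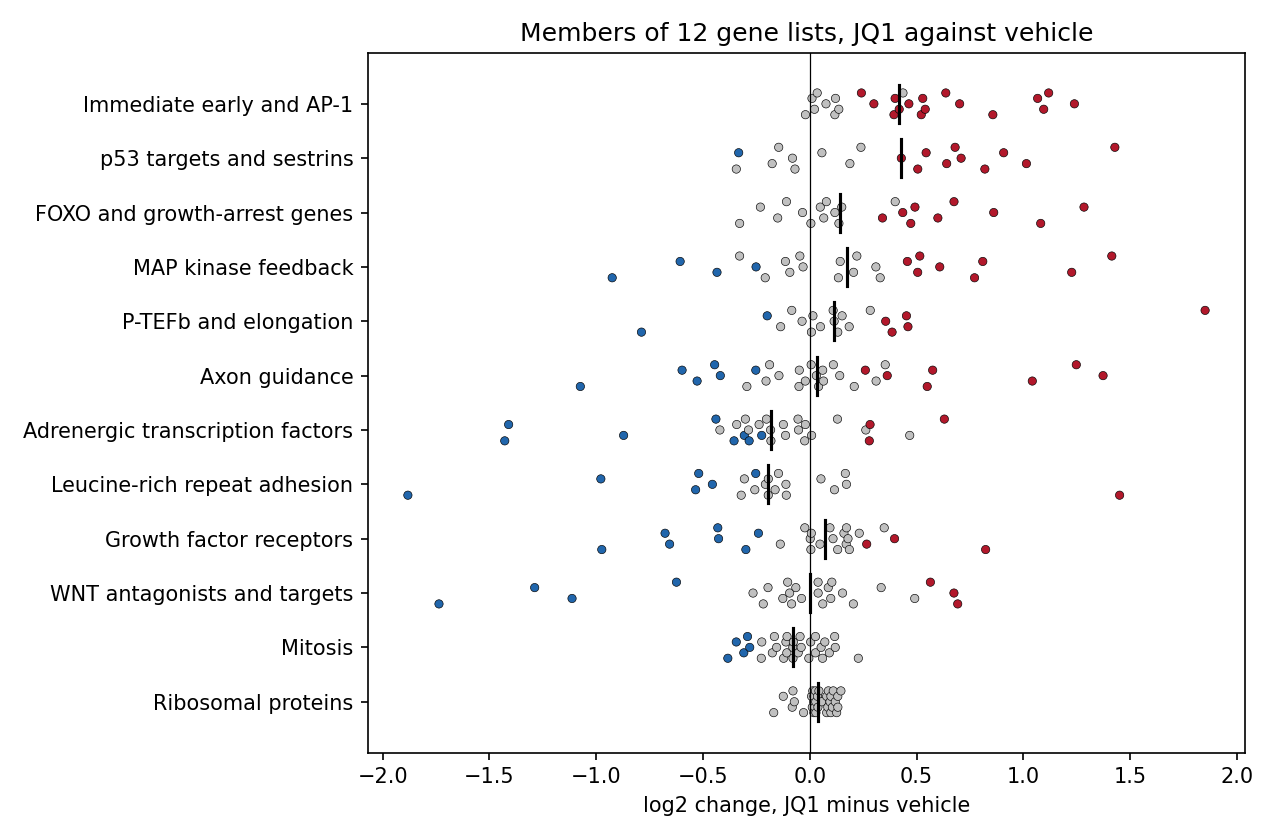
Log2 change (JQ1 minus vehicle) of every measured member of 12 gene lists; red members were called higher, blue ones lower, grey ones were not called, black ticks mark list medians, and vertical offsets within a row carry no value. Members of the immediate early list lie between -0.02 and 1.24, and ribosomal protein genes between -0.17 and 0.15.

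Of 33 enzymes that write or erase chromatin marks, 3 rose, 5 fell and 25 were not called (median 0.06). The share called was 24.2%, against 17.6% over all genes and 20.3% over protein-coding genes. DNMT3B, a de novo DNA methyltransferase, was at a mean of 7.74 in the vehicle arrays and 8.69 in the JQ1 arrays (0.95 ± 0.12), whereas its relative DNMT3A fell by 0.61 ± 0.07. TET2, which oxidises methylcytosine, fell by 0.65 ± 0.09, like its relative TET1 (-0.38), and SUV39H1, a H3K9 methyltransferase, by 0.56 ± 0.06. KDM3A, a demethylase of the same residue, rose by 0.91 ± 0.10, and the demethylase KDM4B rose by 0.35. Of 24 deacetylases and acetyltransferases, 4 rose and 5 fell (37.5% called, median 0.04). SIRT1, a deacetylase that needs NAD, was at 10.22, 10.09 and 10.12 in the vehicle arrays and 11.09, 11.08 and 11.09 in the JQ1 arrays (0.95 ± 0.07, adjusted p = 7.31e-06). SIRT7 rose by 0.50 ± 0.08, and HDAC9 and the acetyltransferase KAT6B fell by 0.54 ± 0.07 and 0.46 ± 0.09. Of 34 RNA polymerase II and Mediator genes, 2 rose and 5 fell (median 0.01), CCNH of the CDK7 kinase by 0.66 ± 0.14. The share called, 20.6%, was close to the 20.3% of all protein-coding genes. Of 30 splicing factors, 4 rose and 2 fell (median 0.08), with SRSF6 at 0.42 ± 0.06 and PTBP2, the neuronal PTB, at -0.57 ± 0.08.

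Stress and metabolic lists gave single large changes. The sterol, heat shock, unfolded protein and matrix lists had 33.3%, 29.4%, 26.3% and 21.4% called, against 17.6% over all genes. In the NRF2 and xenobiotic list (2 rises and 1 fall of 10) AHR was joined by TIPARP, a PARP induced by AHR, at 8.55, 8.39 and 8.44 in the vehicle arrays and 9.66, 9.49 and 9.50 in the JQ1 arrays (1.09 ± 0.09). KEAP1, which marks NRF2 for degradation, was at 10.44, 10.16 and 10.44 in the vehicle arrays and 9.65, 9.55 and 9.57 in the JQ1 arrays (-0.76 ± 0.13), while HMOX1 and TXNRD1, known NRF2 targets, were at -0.09 ± 0.09 and 0.10 ± 0.08 and were not called. Of 21 sterol genes, 5 rose and 2 fell (median 0.06), among them MYLIP, a ubiquitin ligase of the LDL receptor (0.66 ± 0.12), INSIG1 (0.53 ± 0.10) and the fatty acid elongase ELOVL6 (-0.49 ± 0.07). Of 17 heat shock and metallothionein genes, 4 rose and 1 fell, with HSPA2 at 8.35, 7.88 and 8.15 in the vehicle arrays and 9.23, 9.23 and 9.25 in the JQ1 arrays (1.11 ± 0.13). Of 19 ATF4 and unfolded protein genes, 2 rose and 3 fell, with TRIB3 at -0.42 ± 0.08. Of 14 matrix genes, 1 rose and 2 fell, FBN1 by 0.64 ± 0.09 upwards and VCAN by 0.57 ± 0.09 downwards.

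Noncoding RNA genes were called at lower shares than protein-coding genes, and were dimmer. Leaving microRNA genes apart, the largest rises among those at or above the median signal were MIR7-3HG (0.99 ± 0.10), the host gene of a miR-7 locus, LRP4-AS1 (0.84 ± 0.09) and LINC02035 (0.79 ± 0.13). The largest falls were LINC01761 (-1.52 ± 0.17), LINC00963 (-1.38 ± 0.13) and BACE1-AS (-1.18 ± 0.13). BACE1-AS is the antisense transcript of the secretase gene BACE1, and the pair moved apart. BACE1-AS was at 10.20, 9.84 and 9.82 in the vehicle arrays and 8.79, 8.67 and 8.87 in the JQ1 arrays. BACE1, added after its values were seen, was at 10.17, 9.99 and 9.90 in the vehicle arrays and 10.65, 10.57 and 10.49 in the JQ1 arrays (0.55 ± 0.08, adjusted p = 0.000876). Whether the probes of the pair keep the strands apart was not tested.

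Of 1072 microRNA genes, 33 rose and 17 fell, 4.7% in all. These clusters lie over hairpin loci, and labelled total RNA need not reflect the mature microRNA. The genes named here were chosen after their values were seen. MIR1206 and MIR1204, both of the PVT1 locus beside MYC, were at 5.74, 5.35 and 5.09 in the vehicle arrays and 3.71, 2.86 and 3.12 in the JQ1 arrays (-2.16 ± 0.31) and at 6.17, 5.07 and 5.76 in the vehicle arrays and 4.37, 4.21 and 4.35 in the JQ1 arrays (-1.36 ± 0.30). MIR1206 had the largest change of the 2627 called genes. Of the same locus, MIR1205, MIR1207 and MIR1208 were at 0.07 ± 0.29, -0.17 ± 0.15 and -0.09 ± 0.14 and were not called. MIR1207 was dim, with a vehicle mean of 3.47, near the JQ1 mean of MIR1206, 3.23. MIR1205 had the largest error of the 3. Whether the locus changed as a whole was not tested. MIR3143, whose RefSeq neighbours are the histone genes H2AC12 and H2BC12, was at 9.52, 9.05 and 9.48 in the vehicle arrays and 10.52, 10.43 and 10.84 in the JQ1 arrays (1.25 ± 0.14, adjusted p = 0.000113). It was the only microRNA gene with a called rise of at least 2-fold.

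SLIT2 and SLIT3 each hold a copy of the same microRNA in their span, and those copies are shown because the hosts moved in opposite directions. MIR218-1 lies in SLIT2 (mature strand at chr4:20528299-20528319, plus strand) and MIR218-2 in SLIT3 (chr5:168768211-168768231, minus strand), both on GRCh38.p14 from RefSeq. The mature 5p strands are identical, and the seed, bases 2 to 8, is in capitals.
hsa-miR-218-5p of MIR218-1: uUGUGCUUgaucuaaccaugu
hsa-miR-218-5p of MIR218-2: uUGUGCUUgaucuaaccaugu
The 3p strands differ in sequence and in seed.
hsa-miR-218-1-3p: aUGGUUCCgucaagcaccaugg
hsa-miR-218-2-3p: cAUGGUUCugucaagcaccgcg
MIR218-2 was at 6.45, 6.40 and 6.46 in the vehicle arrays and 5.57, 5.75 and 6.00 in the JQ1 arrays (-0.66 ± 0.10, adjusted p = 0.00112), lower like SLIT3. MIR218-1 was at 6.02, 6.32 and 6.15 in the vehicle arrays and 5.95, 6.17 and 6.07 in the JQ1 arrays (-0.10 ± 0.09, adjusted p = 0.565) and was not called, beside the rise of SLIT2. Over all microRNA genes, 423 lay inside a tested gene, and 118 of these inside a called gene, of which 9 were called themselves. Of the 305 inside genes that were not called, 11 were called. All 9 had the direction of their host, such as MIR554 in TUFT1 and MIR548AM in CTPS2. The probes of a hairpin and of its host can read the same transcript, and the part of such shared reads in these 9 was not tested.

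Called genes also lay side by side. Runs of at least 4 neighbouring tested protein-coding genes called in 1 direction numbered 6, of which 5 were lower and 1 higher. On chromosome 1 the run PLPPR5, PLPPR4, PALMD and FRRS1 was lower, led by PALMD and by PLPPR5 at -0.89 ± 0.10. On chromosome 1 as well, EXOC8, SPRTN, EGLN1 and SIPA1L2 formed the run of rises, from 0.25 ± 0.08 for EGLN1 to 1.00 ± 0.10 for SIPA1L2. On chromosome 3, FOXP1, EIF4E3, GPR27 (-0.89 ± 0.12) and PROK2, a prokineticin (-1.15 ± 0.17), were lower. The other lower runs were INPPL1, PHOX2A, CLPB and STARD10 and, farther along chromosome 11, DIXDC1, DLAT, PIH1D2 and NKAPD1, and on chromosome 16 CIAPIN1, COQ9, DOK4 and CCDC102A. Each run rested partly on small changes. The 11 members PLPPR4, FRRS1, EGLN1, FOXP1, EIF4E3, PHOX2A, CLPB, DLAT, NKAPD1, COQ9 and CCDC102A lost their call when some single array was left out, with adjusted p from 0.0503 to 0.166 by limma, and each of the 6 runs held at least 1 of them.

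JQ1 was also compared with panobinostat directly. The difference takes in no vehicle array but the same JQ1 arrays as the comparison above, while the error was estimated from all 12 arrays. Between the compounds 3461 genes were called (23.3%), 1729 higher with JQ1 (11.6%) and 1732 lower (11.6%). That split became 2248 and 1438 after median centring. A fit of the JQ1 and panobinostat arrays alone called 3042. Among the 30 genes with the largest changes, 15 differed between the compounds, 13 of them by moving further with JQ1. Having been chosen for a large change with JQ1, they lean that way by choice. EFR3B had means of 8.24 with vehicle, 9.71 with JQ1 and 8.24 with panobinostat, a difference between compounds of 1.47 ± 0.10 (adjusted p = 5.13e-06). HEXIM1 had means of 8.05, 9.90 and 8.48 in the same order (1.41 ± 0.06), SERTAD1 7.27, 8.55 and 7.22 (1.33 ± 0.15), and BRD2 8.66, 9.54 and 8.70 (0.84 ± 0.10). The panobinostat means of EFR3B, SERTAD1 and BRD2 were close to vehicle, while that of HEXIM1 was higher, at 8.48 against 8.05. AHR and TFAP2B moved further with panobinostat, with differences of -0.57 ± 0.09 and 1.01 ± 0.09. PI15 had means of 8.56, 7.15 and 9.39, below vehicle with JQ1 and above it with panobinostat (-2.24 ± 0.12, adjusted p = 1.4e-06).

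The genes with the largest differences between the compounds included genes whose panobinostat mean lay far from the vehicle mean. MEPCE had means of 9.87 with vehicle, 10.33 with JQ1 and 8.31 with panobinostat (2.01 ± 0.09, adjusted p = 3.1e-07). SGF29, a chromatin reader of the SAGA complex, had 10.65, 11.13 and 9.44 (1.68 ± 0.07). NPTXR had 6.86, 7.96 and 6.43 (1.53 ± 0.11). These 3 genes rose with JQ1, and their panobinostat means lay below the vehicle means. PATZ1 and HMGN2 were higher with JQ1 than with panobinostat by 1.58 ± 0.09 and 1.49 ± 0.17. Lower with JQ1 were CCDC110 (-2.07 ± 0.10), EFCAB12 (-2.00 ± 0.23), EFNA3, an ephrin (-1.99 ± 0.08), and the kinase TEC (-1.77 ± 0.22). The bound of these statements is the pair of single doses, 1 µM and 10 nM, whose equivalence is not given in the labels.

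The response to JQ1 was also read on top of panobinostat, as the change from panobinostat alone to both compounds. For 113 genes (0.759%) that change differed from the change without panobinostat by limma's interaction term. Of the 30 genes with the largest JQ1 changes, 11 did so, PAG1 and SESN3 among them, and in all 11 the change was smaller with panobinostat present. These 30 had been chosen for a large change without it. With panobinostat alone the means of all 11 already lay on the same side of vehicle as with JQ1. SESN3, for example, had means of 9.15 with vehicle, 10.58 with JQ1, 10.49 with panobinostat and 10.77 with both.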

How the data were processed

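The deposited series table holds 1 log2 value per transcript cluster and array (53617 clusters, 12 arrays). That the scale is log2 was read from the values, 1.391 to 14.1, since the log base is not stated per the labels, and every fold depends on it. The submitters' processing notes name MAS5 and affy without roles; the background correction, normalization and build were not given in the sources. A table of GEO's platform annotation named 16098 clusters, all matched to RefSeq by Entrez ID, giving 14884 genes, 779 with more than 1 cluster. The deposited values were not normalised again and no gene was removed.

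The 12 arrays were fitted together in limma 3.58.1 (R 4.3.3, 1 coefficient per group, 8 residual and 3.457 prior degrees of freedom); tests are two-sided. The labels do not say whether replicates were separate cultures, so the spread behind the p-values may be technical. The fit was tested on simulated data with known changes and noise drawn independently for each array. Deviation shared by arrays of equal replicate number was not simulated, so the test does not cover it. Members, the 42 gene lists and tests were chosen with earlier results of these data known. 3 lists (replication-dependent histones, variant histones, voltage-gated channels) had at most 1 named member and were not analysed here.

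Named genes are the 15 largest rises and falls (protein-coding, called, groups not overlapping, higher mean at least that of the median gene), 13 genes tied to BET inhibition or neuroblastoma where named, up to 6 called and 3 other members per list, 3 noncoding genes per direction, 5 per direction between JQ1 and panobinostat, and runs of at least 4 neighbours; others are marked. Alternatives were the replicate block, the 6 arrays alone, median centring, quantile normalization, dropping the dimmest 40% of genes by mean signal, cluster means, a signal-dependent prior, adjustment over all clusters and leaving out each array.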

Additional observations from a re-analysis of the deposited data

Results flagged for a closer look

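For 11 of the 30 genes with the largest JQ1 changes, the change in the presence of panobinostat differed from the change without it (limma interaction, adjusted p under 0.05 over 14884 genes, of which 0.759% passed). The genes had been chosen for a large change without panobinostat, and in all 11 the change was smaller with it. PAG1 changed by 2.02 ± 0.13 without and 0.59 ± 0.13 with panobinostat, a difference of -1.43 ± 0.19 (adjusted p = 0.0107). SESN3 changed by 1.43 ± 0.08 and 0.28 ± 0.08 (-1.15 ± 0.11, adjusted p = 0.00443). AHR changed by 1.47 ± 0.09 and 0.35 ± 0.09 (-1.11 ± 0.12, adjusted p = 0.00694). For SLIT2, MKNK2, TUFT1 and NPTX2 the differences were -0.99 ± 0.15, -0.77 ± 0.11, -0.71 ± 0.13 and -0.64 ± 0.11. Among the falls, RD3 differed by 1.08 ± 0.16, NHSL2 by 1.00 ± 0.12, POPDC2 by 0.97 ± 0.12 and NPY2R by 0.81 ± 0.13. With panobinostat alone the means of all 11 genes already lay on the same side of vehicle as with JQ1. NHSL2 had means of 9.88 with vehicle, 8.23 with JQ1, 8.33 with panobinostat and 7.68 with both, and AHR had 8.36, 9.83, 10.40 and 10.75 in the same order. The count of 11 ranged from 10 to 13 under 4 other settings and from 8 to 10 when single arrays were left out, settings that were chosen after seeing the data.

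Of the 37519 transcript clusters without a gene name, which enter no comparison above, 1441 (3.84%) were called between JQ1 and vehicle, 647 higher and 794 lower, and 202 of them by at least 2-fold.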

How the results depend on the processing

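The values carry no detection call, so how far a signal stood over background cannot be told, and precision is limited by having 3 arrays a group. The tally of 2627 called genes was 2094 with the replicate number as a block (935 higher and 1159 lower, 2052 of them among the 2627), 2026 on the 6 arrays alone, 2793 after median centring, 3015 after quantile normalization, 2921 of 8930 without dim genes, 2591 with the mean of a gene's clusters and 3092 with a prior that followed signal. Adjusting over all clusters gave 1655 (730 higher and 925 lower). Leaving out each array in turn gave 1920 to 2437 called, 810 to 1293 higher, 1043 to 1188 lower and 124 to 140 of at least 2-fold; the 810 came without the first JQ1 array. Between JQ1 and panobinostat such fits gave 2633 to 2951 called, 1227 to 1524 higher and 1334 to 1526 lower. The main fit did not pair arrays by replicate number, since the labels do not say what a number stands for. Deviations from the group means correlated between JQ1 and vehicle arrays at 0.201, 0.179 and 0.096 for equal numbers. For other numbers the correlation was -0.171 to 0.019, and all 6 arrays correlated best with their own number. Arrays of equal number thus shared some deviation, which the fit with the replicate block models and the main fit does not.

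After median centring, falls were 0 in the MYC network and heat shock lists and 1 in the interferon list, and rises were 2 in the interferon and 3 in the DNA replication list. After quantile normalization, falls were 2 for BET readers and 0 for the MYC network, and rises 0 for oncofetal RNA-binding proteins, 1 for mitosis, 3 for DNA replication and 7 for splicing factors. No list median of at least 0.1 in size changed sign under these 2 scalings, and none of the 181 genes whose JQ1 change the text gives changed direction under any setting tried. Of the 169 called, many had been named for the size of their change, which favoured keeping the call. Over all genes, 1655 of the 2627 kept it when adjusted over all clusters. Among the 169, 11 lost the call under at least 1 setting, all of them members of the 6 runs of neighbours. All 11 did when adjusted over all clusters, which touched all 6 runs. With the replicate block, 5 did (CLPB, DLAT, EGLN1, FOXP1 and NKAPD1, adjusted p from 0.0516 to 0.0893 by limma), which touched 4 of the 6 runs.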
